A study of Mus musculus with 5 samples.

Results

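The genes described here were listed as genes of iron-sulfur cluster assembly in mitochondria. They were chosen by name as 9 genes, of which 5 are grouped here as core assembly (Iscu, Nfs1, Lyrm4, Hscb and Fdx1) and 4 as late transfer (Glrx5, Isca1, Isca2 and Nfu1). Fdx1 keeps its label here, although in human cells its paralogue FDX2 serves core assembly. Of these 9 genes, 8 were measured among 22180 genes in all. Nfs1, the cysteine desulfurase that supplies the sulfur, lay on 3 probe sets that each carry symbols of other genes too, so its values are not given. Each of the other genes is represented by its brightest probe set over all arrays.

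Expression was measured on 1-colour arrays in Ter119+ cells of bone marrow, with 3 arrays from Polg mutant mice (Polgtm1Lrsn mt/mt) and 2 from WT mice (Polgtm1Lrsn wt/wt), all on a C57BL/6 background. The mutant mice carry a mitochondrial DNA polymerase without proofreading and accumulate mutations in mitochondrial DNA. The mice of both groups came from one breeding label, with parents that were Atg7 flox/flox and a father that was Epo-cre ki/wt, and the labels do not say which offspring carried Cre. The series' design text says that the mice were phlebotomized, the treatment field reads none, and the series title calls the mutant mice aged without giving ages. Marrow cells were depleted of CD45-bearing cells and then selected for Ter119, an antigen of erythroblasts and red cells. Separate animals are not named for the arrays, so the p-values cover only sample-to-sample spread, part or all of which may be technical.

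Iron-sulfur clusters are cofactors of the respiratory chain, of aconitase, of lipoic acid synthesis and, in mammals, of ferrochelatase, the last enzyme of heme synthesis. In the mitochondrial matrix a desulfurase complex of Nfs1 and Lyrm4 passes sulfur to the scaffold protein Iscu, where a [2Fe-2S] cluster forms. The chaperone Hspa9 and its partner Hscb release that cluster to Glrx5, from which it reaches recipient proteins directly or is joined into [4Fe-4S] clusters by Isca1, Isca2 and Iba57. Nfu1 carries [4Fe-4S] clusters to particular recipients, among them lipoic acid synthase and respiratory complexes. Red cell precursors need the pathway for heme: loss of Glrx5 causes anaemia in zebrafish, and mutation of GLRX5 causes a sideroblastic anaemia in humans.

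The start-site regions of the pair of members whose groups did not overlap, Nfu1 and Glrx5, are shown as the 250 bases upstream of the RefSeq start site, 5′ to 3′. Capitals mark matches to CCAAT or to the GC box GGGCGG on either strand.
Nfu1, GRCm38.p6 chr6:87009586-87009835, plus strand: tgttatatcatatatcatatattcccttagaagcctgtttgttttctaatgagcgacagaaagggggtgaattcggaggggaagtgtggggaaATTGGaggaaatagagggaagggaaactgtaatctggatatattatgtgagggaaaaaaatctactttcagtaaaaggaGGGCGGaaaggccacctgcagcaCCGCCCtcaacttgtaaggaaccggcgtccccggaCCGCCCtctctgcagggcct
Glrx5, GRCm38.p6 chr12:105032368-105032617, plus strand: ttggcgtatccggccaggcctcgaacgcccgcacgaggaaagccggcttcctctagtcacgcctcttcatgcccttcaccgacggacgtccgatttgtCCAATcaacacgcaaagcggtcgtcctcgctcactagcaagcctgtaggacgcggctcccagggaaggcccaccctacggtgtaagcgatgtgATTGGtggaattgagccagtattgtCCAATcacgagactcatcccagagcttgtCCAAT
RefSeq windows were matched for 7 of the 9 members, without Iscu and Hscb. CCAAT was found 1 time upstream of Nfu1 and 4 times upstream of Glrx5, and 33.8% of all 32851 windows hold it. GGGCGG was found 3 times upstream of Nfu1 and in 32.7% of all windows. The letters of an ATF4-type element (TGATGNAA, 3.45% of windows) and of a GATA site (AGATAA, 9.99%) were not in either of these windows. Both strands were searched, and no matches of different motifs shared bases in these windows. Such matches describe letters only.

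In Polg mutant cells the transcript of Nfu1 was 1.87-fold higher than in WT cells. Glrx5 was lower by a small margin on its brighter probe set but not on its other one. The other 6 measured members did not separate the genotypes. With limma, 0 of the 8 passed an adjusted p under 0.05 over all genes tested, where 0% of all genes passed in either direction. At an unadjusted p under 0.05, 1 member was higher and 1 lower, against 4.18% and 5.33% of all genes (9.51% in either direction). The groups did not overlap in the same 2 members, and in 18.1% of all genes. The median difference was -0.0030 over the 8 members and 0 over all genes tested, and 4 members were above zero and 4 below. Because the samples are bulk RNA, fewer cells of a type and less RNA per cell cannot be told apart.

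**Figure D1:**
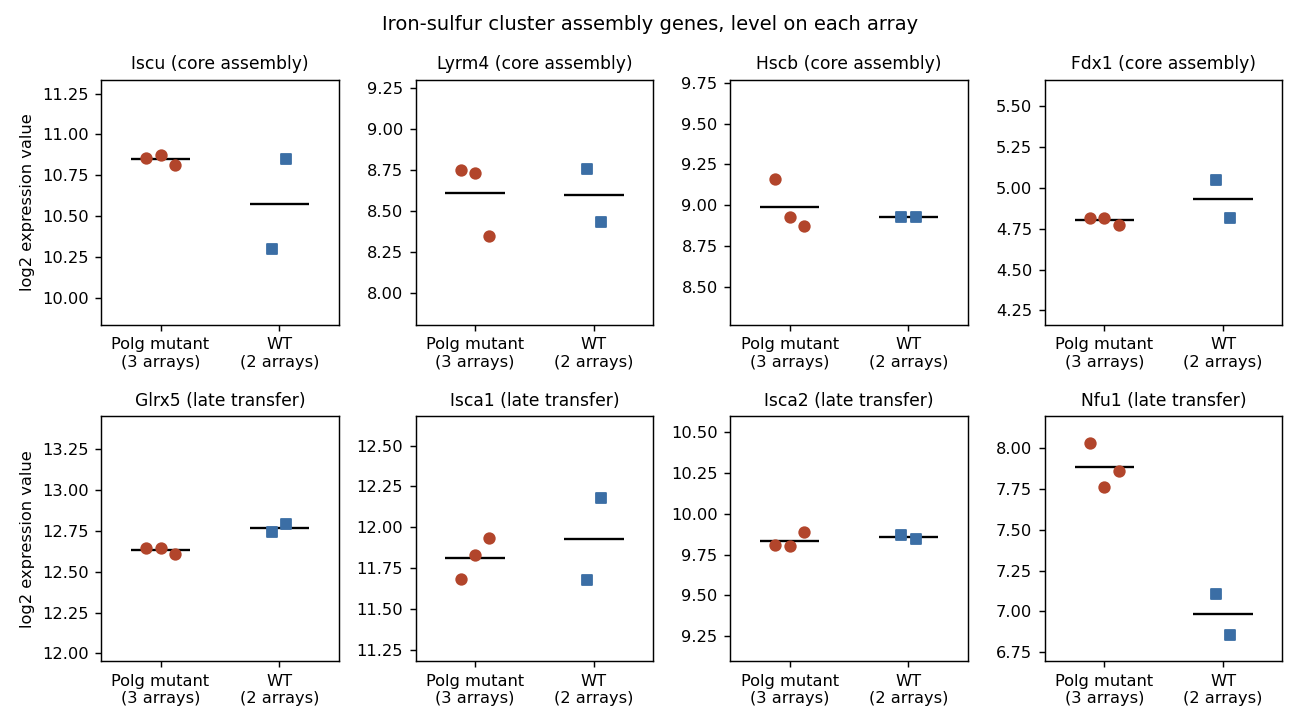
Level of each measured member on each array, on the log2 scale, with Polg mutant arrays as circles, WT arrays as squares and group means as black lines. Each panel spans the same log2 range. All 3 Polg mutant arrays lie above both WT arrays for Nfu1 and below both for Glrx5.

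Nfu1, the late-acting scaffold, read 8.03, 7.76 and 7.86 on the Polg mutant arrays, against 7.11 and 6.86 on the WT arrays, on the log2 scale. Every mutant array was above both WT arrays, with a gap of 0.65 between the nearest arrays of the groups. Group means were 7.88 ± 0.14 in Polg mutant cells (SD, n = 3) and 6.98 ± 0.18 in WT cells (SD, n = 2). The difference was 0.90 ± 0.13 log2 units (SE), with a 95% interval of 0.54 to 1.26 that is not adjusted for the number of genes. Its limma p was 0.00259 before adjustment and 0.236 after adjustment over all genes. In an exact permutation test it reached p = 0.1, two-sided, the smallest that 3 arrays against 2 allow. Only 1.13% of all genes had a larger absolute difference. The groups failed to overlap with mutant higher in 1 of 8 members and in 8.36% of all genes. The difference lay between 0.77 and 1.03 with any 1 array left out. In the fit limited to the 7112 genes with 5 distinct values the adjusted limma p of Nfu1 was 0.0490, at the edge of the threshold. In that fit 73 genes passed as higher and 41 as lower. Over the alternatives the adjusted p of Nfu1 ran from 0.0490 to 0.558.

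The 3 genes whose centred profiles over the 5 arrays were nearest to that of Nfu1, among 7690 candidates of mean log2 at least 6, were Rpsa, Mthfd2 and Irak2. Their root mean square distances from Nfu1 were 0.030, 0.040 and 0.055 log2 units. Rpsa encodes a protein of the small ribosomal subunit, Mthfd2 a mitochondrial one-carbon enzyme that ATF4 induces, and Irak2 a kinase of interleukin-1 and Toll-like receptor signalling. Mthfd2 read 10.54, 10.31 and 10.30 in Polg mutant cells, against 9.62 and 9.40 in WT cells. The difference was 0.87 for Mthfd2, 0.95 for Rpsa and 0.81 for Irak2, values near that of Nfu1 because the genes were picked for profiles like it.

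Glrx5, the monothiol glutaredoxin that takes the cluster from Iscu, read 12.65, 12.65 and 12.61 in Polg mutant cells, against 12.75 and 12.79 in WT cells. Every mutant array was below both WT arrays, as in 1 of 8 members and in 9.73% of all genes. The means were 12.64 ± 0.02 in Polg mutant cells (SD, n = 3) and 12.77 ± 0.03 in WT cells (SD, n = 2). Polg mutant replicates 1 and 2 shared exactly 1 value, so the SD and the SE may understate the spread between samples. The difference was -0.13 ± 0.03 (SE), with a 95% interval of -0.21 to -0.06, an unadjusted limma p of 0.00795 and an adjusted p of 0.280. A second Glrx5 probe set did not separate the groups. It read 10.68, 10.71 and 10.68 in Polg mutant cells, against 10.40 and 10.91 in WT cells, a difference of 0.03 ± 0.17 (SE). With the mean of the pair of probe sets the difference of Glrx5 was -0.05 (limma adjusted p = 0.838). The nearest centred profiles were those of Tnks, Pigk and Atp6ap1, at distances of 0.011, 0.015 and 0.020 and, being picked for likeness, with similar differences of -0.15, -0.12 and -0.13. The mean of the erythroid markers, over 10 measured genes of 12, was 11.85, 11.92 and 11.87 in Polg mutant cells, against 12.24 and 12.05 in WT cells. All 10 had differences below zero, from -0.46 to -0.12. With limma 0 passed the adjusted threshold and 4 were lower at an unadjusted p under 0.05, against 5.33% of all genes. In 9 every mutant array was below both WT arrays, against 9.73% of all genes. The part of these markers in the difference of Glrx5 was not tested.

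The A-type proteins Isca1 and Isca2, which help to form [4Fe-4S] clusters, did not separate the genotypes. Isca1 read 11.69, 11.83 and 11.93 in Polg mutant cells, against 11.68 and 12.18 in WT cells. The WT arrays were the lowest and the highest of the 5, and they differed by 0.50, a WT gap that 7.57% of all genes exceeded. The difference of Isca1 was -0.11 ± 0.19 (SE; 95% interval -0.65 to 0.42; limma adjusted p = 0.812). It was -0.37 without WT replicate 1 and 0.14 without WT replicate 2. Isca2 read 9.81, 9.80 and 9.89 in Polg mutant cells, against 9.87 and 9.84 in WT cells. Its difference was -0.02 ± 0.04 (SE), with a 95% interval of -0.12 to 0.08. The width of that interval depends on the genes that set limma's variance prior. The unadjusted limma p of Isca2 was 0.594 over all genes and 0.861 in the fit limited to genes with 5 distinct values, where the prior spread was larger.

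Among core assembly genes, Iscu, the scaffold itself, depended on which WT array was used. It read 10.85, 10.87 and 10.82 in Polg mutant cells, against 10.30 and 10.85 in WT cells. The mutant arrays lay within 0.057 of each other, while the WT arrays were 0.55 apart and the higher of them lay among the mutant arrays. The difference was 0.27 ± 0.19 (SE; 95% interval -0.26 to 0.81; limma adjusted p = 0.638). Without WT replicate 2 the difference was 0.55, and without WT replicate 1 it was -0.0022. Such fits have 1 WT array and take its variance from the mutant arrays.

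Lyrm4, the small partner that stabilizes Nfs1, read 8.75, 8.73 and 8.35 in Polg mutant cells, against 8.76 and 8.43 in WT cells. The arrays fell into a higher and a lower set that each held both genotypes. The difference was 0.01 ± 0.19 (SE; 95% interval -0.52 to 0.55), and the other Lyrm4 probe set gave -0.15 ± 0.10. Hscb, the J-protein that brings the scaffold to Hspa9, read 9.16, 8.93 and 8.88 in Polg mutant cells, against 8.93 and 8.93 in WT cells. Polg mutant replicate 1 was the high array, and the other mutant arrays were at or below the WT value. Its difference was 0.06 ± 0.10 (SE; 95% interval -0.23 to 0.36). Exactly 1 value was shared by 3 of its 5 arrays, so the WT SD of 0 does not measure the spread between WT samples.

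Fdx1 is a ferredoxin, an electron carrier that in human cells serves steroid hydroxylation and lipoylation, while its paralogue FDX2 serves core assembly. It read 4.82, 4.82 and 4.77 in Polg mutant cells, against 5.05 and 4.82 in WT cells. These values lie below the array medians of 5.10 to 5.13 and may not exceed background. The difference was -0.13 ± 0.08 (SE; limma adjusted p = 0.638), or -0.015 without WT replicate 1. One value was shared by 3 of its arrays too.

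**Figure D2:**
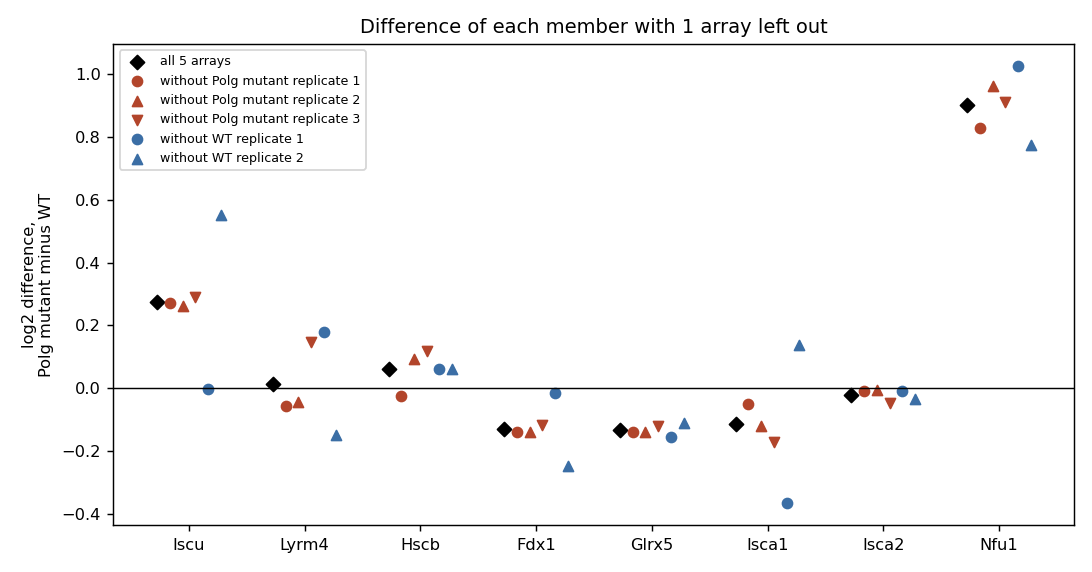
Log2 difference (Polg mutant minus WT) of each measured member with all 5 arrays (black diamonds) and with 1 array left out (coloured symbols). Nfu1 stays between 0.77 and 1.03, while Iscu runs from -0.0022 to 0.55 with the WT array that is left out.

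Markers of other cell types differed between the arrays, and on its brighter probe set Lyrm4 divided the arrays as the neutrophil list did. The other Lyrm4 probe set did not, since it read 8.23 on Polg mutant replicate 2 and 8.34 on WT replicate 2. The mean of 13 neutrophil markers was 8.74, 9.21 and 7.51 in Polg mutant cells, against 8.32 and 7.32 in WT cells. The groups overlapped in all 13 markers, whereas they did not overlap in 18.1% of all genes. At an unadjusted limma p under 0.05 there were 0 of the 13, against 9.51% of all genes in either direction. Differences were above zero in 11 markers and below in 2, with a median of 0.71 and a range of -0.10 to 1.37. Their SEs were wide, from 0.33 for Mmp9 to 1.145 for S100a8. The values therefore do not show that these markers were equal between genotypes. Polg mutant replicate 3 and WT replicate 2 were low both for this list and for the brighter Lyrm4 probe set, and were the highest arrays for Isca1. Across all 22180 genes, deviations of these arrays within their genotypes correlated at 0.31. Those of Polg mutant replicates 1 and 2 correlated with WT replicate 1 at 0.19 and 0.20. The deviations of the 2 WT arrays mirror each other and those of the 3 mutant arrays sum to zero. Some pairs must therefore correlate positively, and these values do not show how many genes followed the split. The part of the neutrophil list in Lyrm4 and Isca1 was not tested. Macrophage markers averaged 5.44 to 5.67 in Polg mutant cells and 5.52 in each WT array over 10 genes. Over 6 megakaryocyte genes the averages were 6.37 to 6.59 in Polg mutant cells, against 6.55 and 7.26 in WT cells. Of these, the platelet receptor gene Gp9 read 8.84, 9.23 and 9.11 in Polg mutant cells, against 10.42 and 10.41 in WT cells, and the platelet chemokine gene Ppbp read 8.41 on WT replicate 2 and 5.14 to 6.04 on the other arrays. Gp9 and Ppbp were singled out after their values were seen. Over 7 lymphocyte genes the averages were 4.38 to 4.62 in Polg mutant cells, against 4.74 and 4.58 in WT cells. Polg itself read 6.97 on every array. The mutation replaces a codon, so this transcript level does not check the genotype labels.

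**Figure D3:**
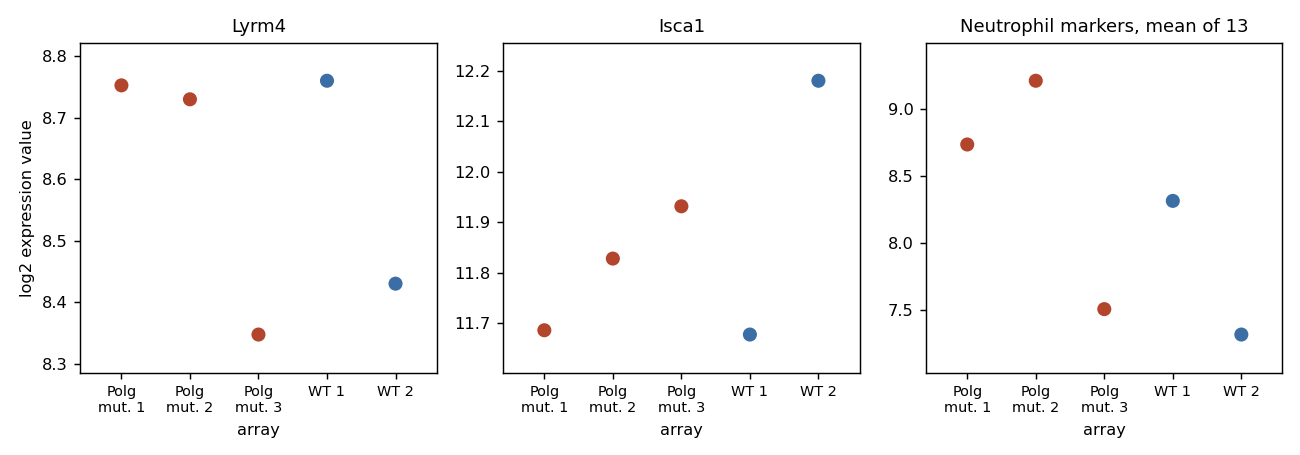
Level of Lyrm4, level of Isca1 and mean level of 13 neutrophil markers on each array, on the log2 scale, with Polg mutant arrays left and WT arrays right. Polg mutant replicate 3 and WT replicate 2 are low in the panels of Lyrm4 and of the neutrophil markers and high in the panel of Isca1.

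Among matrix partners of these genes, 7 of 11 listed were measured, 0 passed the adjusted threshold, and at an unadjusted limma p under 0.05 there were 2 higher and 1 lower, against 4.18% and 5.33% of all genes. The others, Fdx2 and Fdxr among them, are not analysed here. Hspa9, the chaperone that works with Hscb, was higher by 1.11 ± 0.09 (SE; limma adjusted p = 0.186). It read 10.28, 10.08 and 10.31 in Polg mutant cells, against 9.08 and 9.16 in WT cells, while Hscb did not separate the groups. Iba57, the partner of Isca1 and Isca2, read 6.15, 6.44 and 6.04 in Polg mutant cells, against 6.83 and 6.63 in WT cells. It differed by -0.52 ± 0.16 (SE; limma adjusted p = 0.448), opposite in sign to Nfu1. Gfer, a sulfhydryl oxidase of the intermembrane space linked to cluster export in yeast, differed by 0.34 ± 0.11, and Bola3, which works with Nfu1 on [4Fe-4S] delivery, by -0.16 ± 0.09. The median of these 7 genes was 0.03.

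In the cytosolic assembly machinery, which makes clusters for proteins outside mitochondria, 10 of 11 listed genes were measured. None passed the adjusted limma threshold, with 0 higher and 3 lower at an unadjusted p under 0.05 (4.18% and 5.33% of all genes). The groups did not overlap in 3 genes on the higher and 3 on the lower side, against 8.36% and 9.73% of all genes. Ciapin1, which takes part in electron supply for this machinery, read 8.49, 8.58 and 8.46 in Polg mutant cells, against 8.93 and 8.88 in WT cells. Its difference was -0.40 ± 0.05 (SE; limma adjusted p = 0.208). The targeting factors Mms19 and Ciao1, which hand clusters to recipient proteins, differed by -0.13 ± 0.02 and -0.30 ± 0.10, and Bola2, a partner of Glrx3, by 0.32 ± 0.15. The median over these 10 genes was -0.06.

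Of mitochondrial proteins that carry iron-sulfur clusters, 12 of 13 were measured, with 1 higher and 1 lower at an unadjusted limma p under 0.05, against 4.18% and 5.33% of all genes, and 0 past the adjusted threshold. Ndufs8, a [4Fe-4S] subunit of complex I, read 9.88, 9.64 and 9.83 in Polg mutant cells, against 9.14 and 9.23 in WT cells, and differed by 0.60 ± 0.09 (SE; limma adjusted p = 0.238). Sdhb, the cluster subunit of complex II, differed by 0.57 ± 0.25, with all mutant arrays (7.77 to 8.47) above both WT arrays (7.41 and 7.58). Ndufv1, a complex I subunit, differed by -0.13 ± 0.07. Fech, ferrochelatase, differed by -0.08 ± 0.02 (limma adjusted p = 0.319). Lias, the lipoic acid synthase that Nfu1 supplies, read 7.12, 6.97 and 7.12 in Polg mutant cells, against 7.42 and 7.06 in WT cells. Its groups overlapped, and it differed by -0.17 ± 0.13. A further 7 genes of lipoic acid transfer and of lipoylated enzymes (Lipt1, Lipt2, Dlat, Dlst, Dbt, Gcsh and Pdhx) were added after Nfu1 had been seen. Their differences lay between -0.08 and 0.08, with SEs from 0.04 for Dlst to 0.33 for Dbt. The groups overlapped in all 7, whereas they did not overlap in 18.1% of all genes. For Lipt1, Dlat and Dbt the WT arrays shared a value, so the WT SD of 0 does not measure the spread between WT samples. With SEs of 0.15 for Lipt1 and 0.33 for Dbt, the values do not show that these genes were unchanged.

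Of 18 cytosolic and nuclear iron-sulfur proteins, all measured, 1 was higher and 2 were lower at an unadjusted limma p under 0.05, against 4.18% and 5.33% of all genes, and 0 passed the adjusted threshold. Ppat, the first enzyme of purine synthesis, differed by 0.44 ± 0.11 (SE). Dna2 and Prim2, a nuclease and a primase subunit of DNA replication, differed by -0.37 ± 0.10 and -0.41 ± 0.12, and Dpyd, a pyrimidine-degrading enzyme, by -0.30 ± 0.13. Their limma adjusted p lay between 0.377 and 0.638. Aco1, which without its cluster becomes the iron regulatory protein IRP1, read 6.85, 6.85 and 6.70 in Polg mutant cells, against 6.87 and 6.85 in WT cells, a difference of -0.06 ± 0.06.

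**Figure D4:**
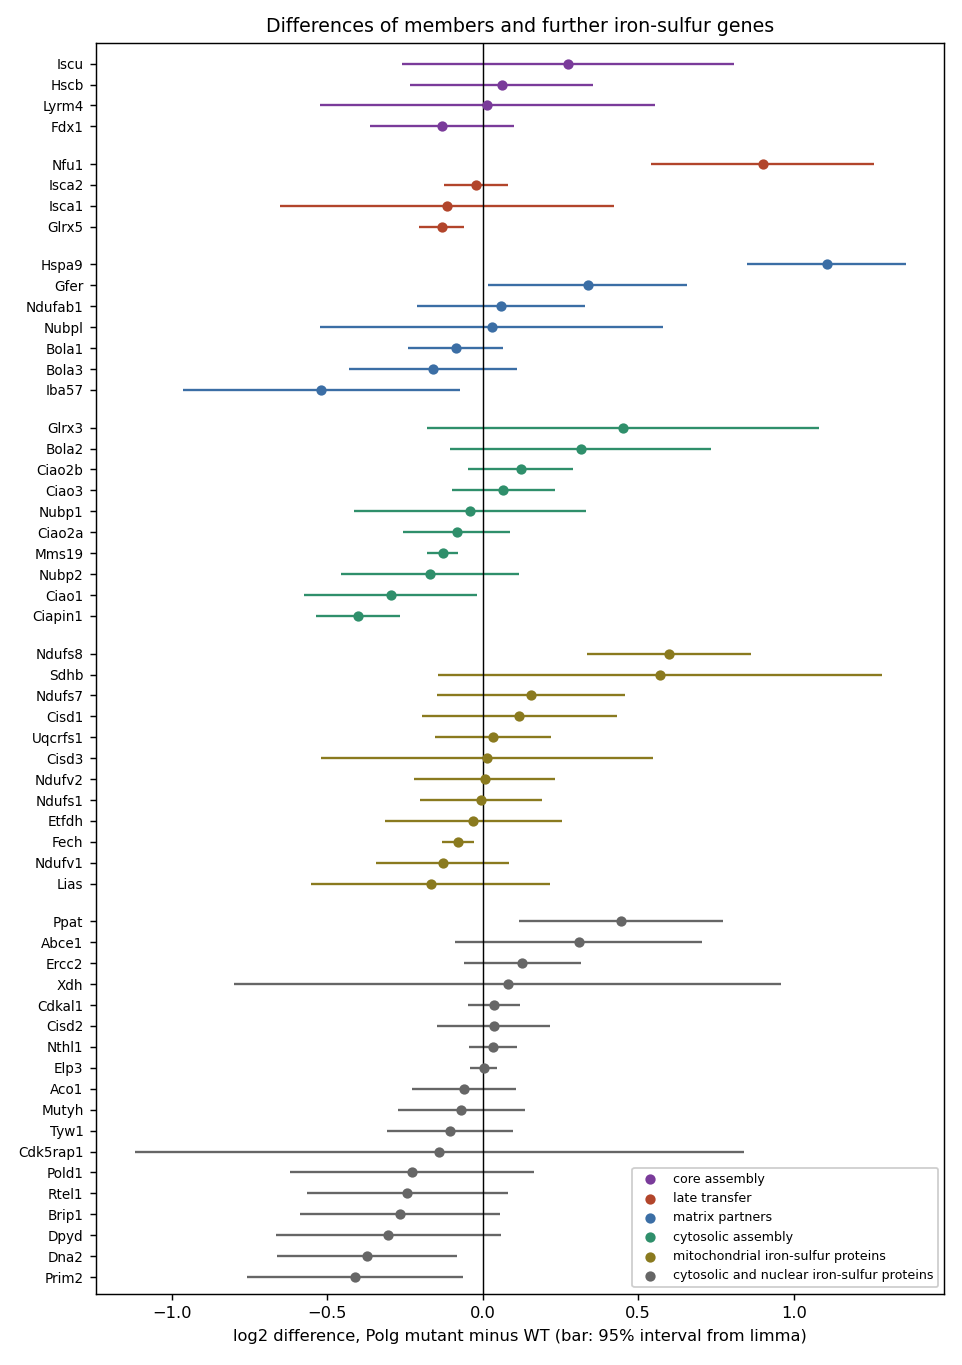
Log2 difference (Polg mutant minus WT) of each measured member and of each measured gene in 4 further iron-sulfur lists, with 95% intervals from limma that are not adjusted for the number of genes. Nfu1 at 0.90 and Hspa9 at 1.11 are the 2 values furthest right, and Iba57 at -0.52 is the value furthest left.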

How the data were processed

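The authors deposited log2 values of 41345 probe sets on 5 arrays, made with RMA and Partek 6.5 per the submitters' processing notes, which give no role or order for the tools. Their range of 1.43 to 14.1 is that of a log2 scale. The probe annotation and build are not given in the sources used here. Values were used as deposited. Signal over background is unknown, and the number of arrays limits the precision. In the platform's annotation 23521 probe sets had 1 symbol, 1814 several and 16010 none. The brightest single-symbol probe set stood for each of 22180 genes.

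limma 3.58.1 (R 4.3.3) compared the genotypes (two-sided, Benjamini-Hochberg over all genes, threshold 0.05). The fit was also run on simulated data that had no tied values, so that run does not cover ties. Of the genes tested, 67.9% had the same value on at least 2 arrays. limma's prior SD was 0.0376 (0.730 prior degrees of freedom) over all genes and 0.170 (3.17) over genes with 5 distinct values. Members and lists were chosen with earlier results of these data known. The text names all members, up to 4 genes of each further list by smallest p, plus a fixed set that includes Hspa9, Fech, Aco1, Lias, Polg and Atg7. Atg7 read 7.71 on WT replicate 2 and 7.74 on the other arrays. Promoter windows are those of RefSeq on GRCm38.p6.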

Additional observations from a re-analysis of the deposited data

How the results depend on the processing

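With 2 and 3 arrays a group, depth over background was unknown and each setting changed 1 choice. With limma, 0 genes passed as higher and 0 as lower over all genes tested (2110 at an unadjusted p under 0.05). The counts were 4 higher and 1 lower without variance moderation, 6 and 5 among genes that exceeded a log2 of 6 on 2 or more arrays, 73 and 41 among genes with 5 distinct values, and 8 and 1 after renewed quantile normalization. Leaving out 1 array gave 0 to 713 higher and 0 to 1068 lower, the highest without WT replicate 1, and 511 and 413 without WT replicate 2. Among the members, 1 was past the threshold as higher (Nfu1) among genes with 5 distinct values, and 0 to 1 with 1 array left out (Iscu, without WT replicate 2). Members higher at an unadjusted limma p under 0.05 numbered 1 with any 1 Polg mutant array left out, and lower ones likewise 1. With all 5 arrays the counts were the same, against 4.18% and 5.33% of all genes. Fits with 1 WT array are not counted here. None was lower at that level among genes with 5 distinct values, where Glrx5 was not fitted because it has tied values, nor with the mean of a gene's probe sets (0), nor in the fit with a replicate block (0). The median of the members lay between -0.037 and 0.035 over all settings.

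Nfu1, Glrx5, Fdx1 and Isca2 kept their direction under every alternative that could be fitted, but Isca2 came as near to zero as -0.0055 and Fdx1 as -0.015. The second Glrx5 probe set alone, with a difference of 0.03, was not among the alternatives. Lyrm4 was -0.067 with the mean of its probe sets. With 1 array left out Lyrm4 ran from -0.15 to 0.18, Iscu from -0.0022 to 0.55, Isca1 from -0.37 to 0.14 and Hscb from -0.026 to 0.12. The cause was not tested. With the replicate block, in which Polg mutant replicate 3 has a term of its own, Nfu1 differed by 0.91 (limma adjusted p = 0.488) and Glrx5 by -0.12 (0.531). Deviations of same-numbered arrays correlated at 0.19 for number 1 and -0.20 for number 2 across genes. With 2 WT arrays the WT deviations mirror each other, so these values cannot tell whether same-numbered arrays were paired. The largest correlation was 0.31, between Polg mutant replicate 3 and WT replicate 2.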
